A study of Sus scrofa with 11 samples.

Results

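Ion channel genes of pig skeletal muscle were described here, grouped by the ion they carry. They were the rows of the gene table whose pig Ensembl ID has a symbol of the families KCN (potassium; KCNJ8 left out), SCN (sodium), CACN (voltage-gated calcium), CLCN and CLIC (chloride), RYR and ITPR (calcium release), or TRPC, TRPM and TRPV (transient receptor potential cation channels). A rule on symbols also takes in a few proteins that are not channels, such as TRPC4AP. Of 25322 rows 129 matched, and 31 were kept because they had at least 1 CPM (counts per 1000000 counts of the library, TMM-normalised) in at least 4 of the 11 pigs. The kept genes were 14 potassium, 5 voltage-gated calcium, 5 chloride, 3 sodium, 3 transient receptor potential and 1 calcium release gene. The sampled muscle was the longissimus lumborum, along the spine, of 11 female pigs at 23 weeks of age, sorted into groups by the histology of that muscle. In the 7 fibre1 pigs type I (slow, oxidative) fibres were above 17% and type IIB (fast, glycolytic) fibres below 70%. In the 4 fibre2B pigs type I fibres were below 8% and type IIB fibres above 70%. The labels give no treatment or breed for either group.

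Skeletal muscle fibres turn a nerve signal into force through ion channels. The muscle sodium channel carries the action potential along the surface and into the transverse tubules, where the dihydropyridine receptor, a voltage-gated calcium channel, senses it and opens the ryanodine receptor of the sarcoplasmic reticulum. Chloride and potassium channels then bring the membrane back to rest. Fast and slow fibres are known to differ in how densely they carry several of these channels. The excitation-contraction channels described by name are CACNA1S, CACNB1, CACNA2D1, CACNG1 and SCN4A. The symbols RYR1, RYR3, CLCN1, KCNJ2 and KCNJ11 belong to IDs that are not rows of the count table, so the ryanodine receptor, the muscle chloride channel and the main inward rectifiers were not analysed here.

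The depth was least in fibre2B pig 14 (14832736 counts) and greatest in fibre1 pig 12 (36374829), and 28 of the 31 genes had at least 10 counts in every pig. Fibre1 pigs 5 and 6 stood apart, with 45.2% and 44.1% of their counts on the 10 most abundant nuclear genes, against 29.5% to 36.8% in the other 9 pigs. Their TMM factors were 0.718 and 0.779, against 0.959 to 1.19 in the other 9 pigs. A low factor raises every CPM of a pig, so the ranks of pigs 5 and 6 by CPM depend on the scaling. When fibre2B pig 14 was dropped, 0 genes of any kind passed in edgeR (2436 at an unadjusted p under 0.05). DESeq2 then called 771 and limma-voom with quality weights 1095. Each edgeR call below was thus lost without that pig, whether or not the gene's own difference shrank. The log2 fold change of TRPM7 went from -0.82 to -0.91, that of CLCN4 from 0.77 to 0.71 and that of TRPC4AP from 0.59 to 0.54. Muscle fibre markers were abundant (ACTA1, DES, NEB, TNNT1 and CACNA1S, 5 of 10 listed genes with a row, of which CACNA1S is itself among the 31 channel genes). They summed to 77774 to 164339 CPM in fibre1 and 57332 to 88974 CPM in fibre2B, with 5 positive log2 fold changes and 0 calls, and their part in the channel values was not tested. The 5 nerve and Schwann cell markers with a row summed to at most 2.68 CPM in any pig. The tissue is bulk muscle, so fewer cells of a type and less RNA per cell cannot be told apart. The labels make each pig a sample of its own, so the spread is that between animals.

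The share of channel genes that passed lay near that of all genes. By edgeR's quasi-likelihood test 3 of the 31 (9.68%) passed a Benjamini-Hochberg adjusted p of 0.05, against 9.01% of all 11329 genes tested. CLCN4, an endosomal chloride-proton exchanger, and TRPC4AP, a protein that binds the channel TRPC4, were higher in fibre1, where 4.38% of all genes were called. TRPM7, a cation channel fused to a protein kinase, was higher in fibre2B, where 4.63% of all genes were called. The other 28 did not pass. Without fibre1 pigs 5 and 6 edgeR called 0 of the 31, and so it did without fibre2B pig 14 and without fibre2B pig 10. Without fibre2B pig 16 these calls were lost too, and only CACNG6 was called. Log2 fold changes (fibre1 minus fibre2B) were positive in 20 genes and negative in 11, with a median of 0.22, where the median over all genes tested was 0.0073 and 50.7% were positive. Their median size was 0.42, against 0.32 over all genes. The groups did not overlap for 1 of the 31 genes, TRPM7 (3.23%), against 7.52% of all genes. Each kept gene had at least 1 pig at 1 CPM in each group. The number without such a fibre1 pig was 0, and so was the number without such a fibre2B pig. The 4 pigs that the filter asks for could still come from 1 group. KCNK13, with a negative log2 fold change, had 4 fibre2B pigs and only 3 fibre1 pigs at 1 CPM.

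**Figure D1:**
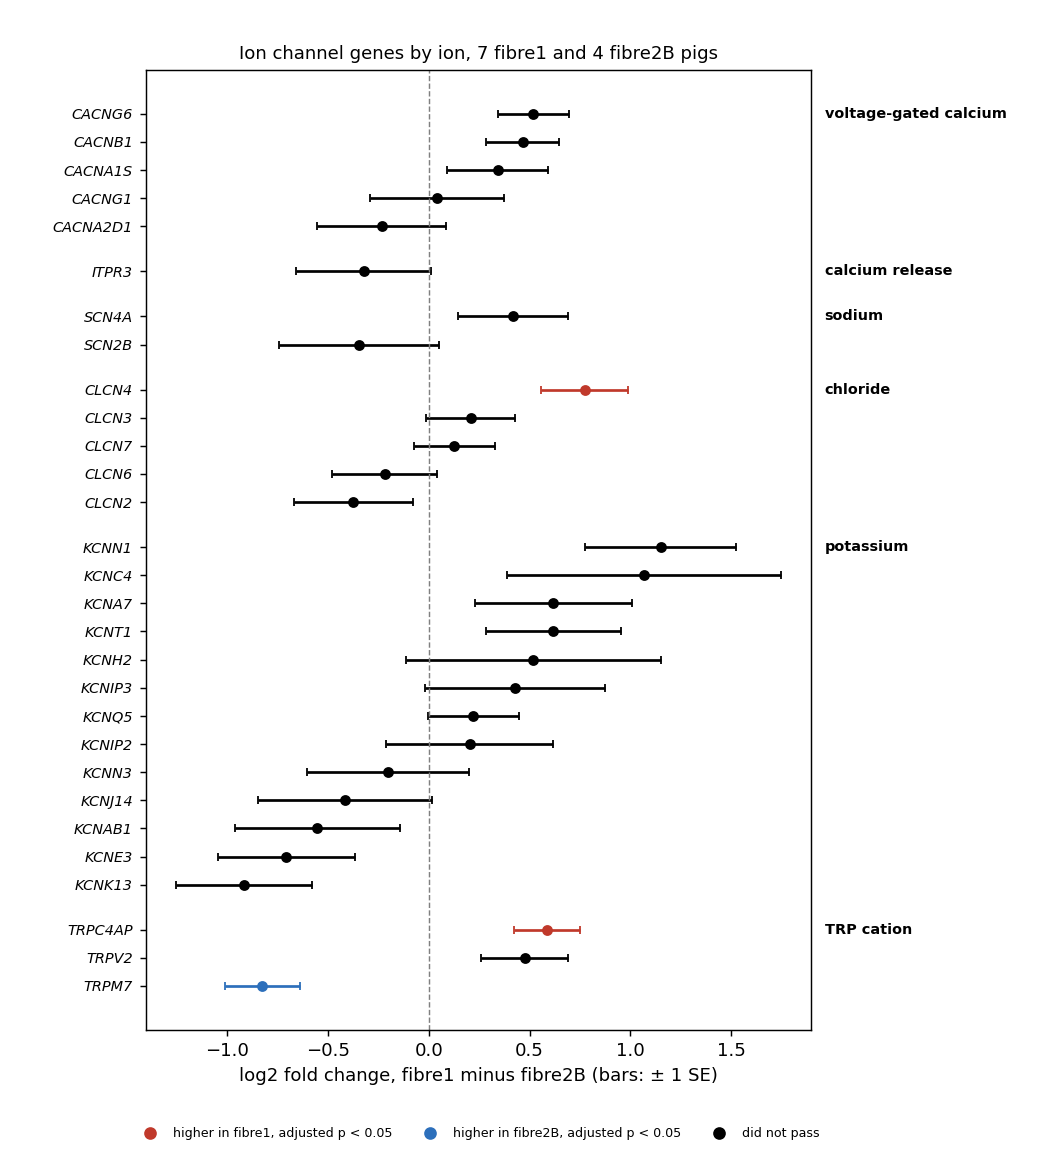
Log2 fold change of 29 of the 31 ion channel genes (x axis, fibre1 minus fibre2B, bars ± 1 SE), grouped by ion on the y axis. CLCN4 (0.77) and TRPC4AP (0.59) in red and TRPM7 (-0.82) in blue passed an adjusted p of 0.05, and the genes in black did not.

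The voltage-gated calcium channel of the transverse tubule is built from a pore and several auxiliary subunits. Of the 5 kept genes of the voltage-gated calcium family 0 passed, and CACNG6 among them is not on the list of excitation-contraction channels. CACNA1S (ENSSSCG00000024784), the pore and voltage sensor, had 265 to 668 CPM in fibre1 (median 321) and 340, 328, 218 and 317 CPM in fibre2B pigs 10, 11, 14 and 16. The groups overlapped: fibre1 pigs 6 (668) and 5 (480) were the highest, and the other 5 fibre1 pigs lay between 265 and 334, among the fibre2B values. The low TMM factors of pigs 5 and 6 raise their CPM, here and for the other subunits. The means were 381 ± 144 (SD, n = 7) and 301 ± 55.8 CPM (n = 4), and the log2 fold change was 0.34 with an SE of 0.25 (edgeR adjusted p = 0.384). Without pigs 5 and 6 it was 0.019 (adjusted p = 0.959).

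CACNB1, the beta subunit that holds the pore at the junction with the sarcoplasmic reticulum, had 220 to 377 CPM in fibre1 (median 267) and 233, 232, 161 and 202 CPM in fibre2B. Here too pigs 5 (377) and 6 (366) were highest, but 6 of the 7 fibre1 pigs lay above every fibre2B pig and pig 7 (220) did not. Its log2 fold change was 0.47 ± 0.18 (edgeR adjusted p = 0.108). Without pigs 5 and 6 it was 0.28 (adjusted p = 0.271). CACNG6, a gamma subunit, had 20.4 to 31.5 CPM in fibre1 (median 25.8) and 18.2, 14.5, 15.1 and 25.9 CPM in fibre2B. The overlap came from fibre2B pig 16, which lay among the fibre1 pigs, while the other 3 fibre2B pigs lay below all of them. Its log2 fold change was 0.52 ± 0.18 (edgeR adjusted p = 0.077). DESeq2 put it past the threshold (0.040), as did dropping fibre2B pig 16 (0.044) or fibre1 pig 12 (0.046).

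The other gamma subunit, CACNG1, ran from 191 CPM in fibre1 pig 1 to 733 CPM in fibre1 pig 6, with a fibre1 median of 424. In fibre2B it had 362, 619, 217 and 481 CPM. Each group spanned a wide and almost shared range, and the log2 fold change was 0.040 ± 0.33 (edgeR adjusted p = 0.951), with a sign that turned under 10 of 25 alternatives. CACNA2D1, the alpha2delta subunit outside the membrane, had 5.05 to 17.7 CPM in fibre1 (median 6.92) and 13.2, 10.3, 10.6 and 9.53 CPM in fibre2B, with a log2 fold change of -0.23 ± 0.32 (edgeR adjusted p = 0.657). Its fibre1 values lay in separate ranges, pigs 2, 5, 6 and 17 at 5.05 to 6.92 CPM and pigs 1, 7 and 12 at 11.1 to 17.7 CPM. The fibre2B pigs lay between them or among the higher 3.

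Ratios within a pig do not depend on the scaling between pigs, and none separated the groups. The ratio of CACNB1 to CACNA1S counts was 0.548 to 0.981 in fibre1 (median 0.786) and 0.638 to 0.737 in fibre2B (median 0.696). In fibre1 pig 6, with the highest CACNA1S, that ratio was the lowest of all 11 pigs. The ratio of CACNG1 to CACNA1S was 0.601 to 1.60 in fibre1 and 0.996 to 1.89 in fibre2B, that of CACNA2D1 to CACNA1S 0.0081 to 0.067 and 0.030 to 0.049, and that of CACNG6 to CACNG1 0.041 to 0.133 and 0.023 to 0.069. These 4 ratios were chosen after the values were seen and carry no test. They are ratios of counts not corrected for gene length, so they compare pigs and not subunits.

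**Figure D2:**
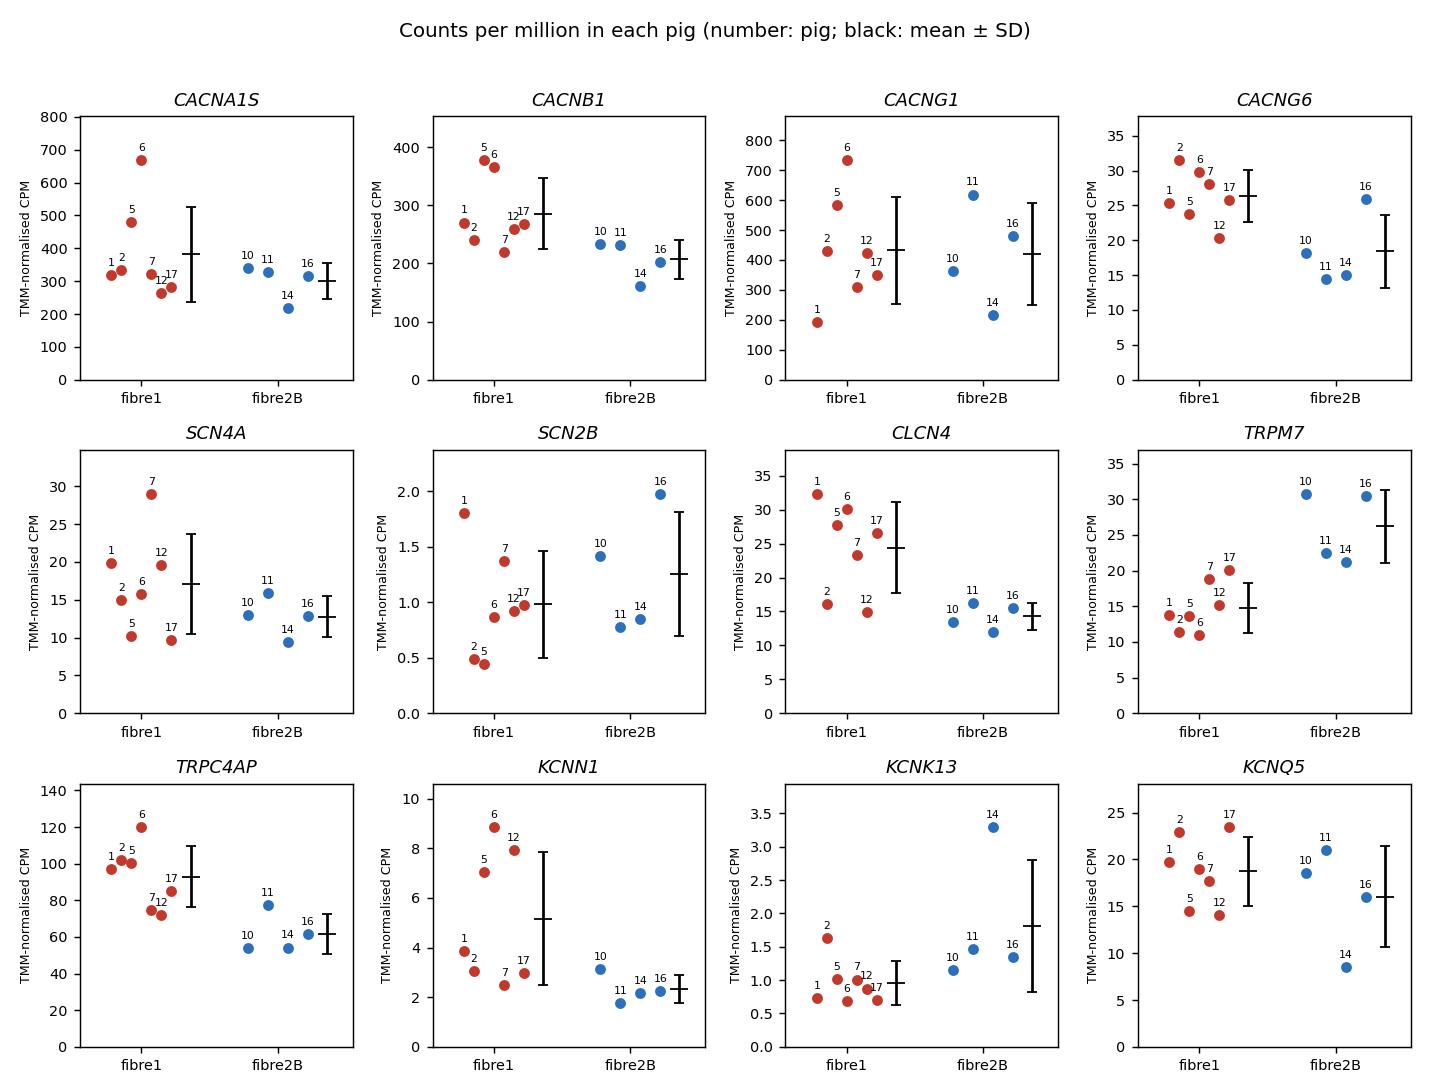
TMM-normalised CPM (y axes, from 0) of 12 channel genes in each pig, 7 fibre1 in red and 4 fibre2B in blue, numbered by pig, with the mean ± SD in black. TRPM7 is the only panel in which the groups do not overlap (10.9 to 20.1 CPM in fibre1, 21.2 to 30.7 in fibre2B), and pigs 5 and 6 lead fibre1 for CACNA1S, CACNB1 and CACNG1.

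Of the sodium channel genes 0 of 3 passed. SCN4A, the sodium channel of adult muscle, had 9.68 to 29.0 CPM in fibre1 (median 15.8) and 13.0, 15.9, 9.35 and 12.8 CPM in fibre2B. Fibre1 pigs 7 (29.0), 1 (19.9) and 12 (19.6) lay above every fibre2B pig, and the other 4 lay among them. The log2 fold change was 0.42 ± 0.27 (edgeR adjusted p = 0.325), and 0.24 without fibre1 pig 7. SCN2B, a beta subunit, stayed near the filter at 0.443 to 1.81 CPM in fibre1 and 0.779 to 1.98 CPM in fibre2B (-0.35 ± 0.40, edgeR adjusted p = 0.590). Dropping fibre2B pig 16 brought SCN2B to -0.047.

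Among the chloride genes 1 of 5 passed, where 9.01% of all genes tested were called. It was CLCN4 (ENSSSCG00000024809). Its product swaps chloride for protons in endosomes and is not the chloride channel of the fibre surface. CLCN4 had 32.3, 16.1, 27.8, 30.1, 23.3, 14.9 and 26.6 CPM in fibre1 pigs 1, 2, 5, 6, 7, 12 and 17 and 13.5, 16.2, 11.9 and 15.5 CPM in fibre2B pigs 10, 11, 14 and 16. Thus 5 fibre1 pigs lay above every fibre2B pig, and pigs 2 and 12 lay among them. The means were 24.4 ± 6.75 (SD, n = 7) and 14.3 ± 1.94 CPM (n = 4), a 1.71-fold difference with a log2 fold change of 0.77 ± 0.22 (edgeR adjusted p = 0.044). The call was lost without any 1 of 8 pigs, namely fibre1 pig 1, 5, 6 or 17 or any fibre2B pig (adjusted p from 0.055 to 0.138), without pigs 5 and 6 together (0.126), with limma-voom (0.062), with no filter (0.053) and with the top-10 share of each pig as covariate (0.078). With pig 14 left out CLCN4 missed the threshold in DESeq2 (0.062) and in limma-voom with quality weights (0.095).

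The other intracellular exchangers of the family showed no such difference past the threshold. CLCN3 of endosomes had 1.84 to 3.75 CPM in fibre1 and 1.81 to 2.81 CPM in fibre2B (0.21 ± 0.22, edgeR adjusted p = 0.561). CLCN7, which acidifies lysosomes and resorption pits, had 7.84 to 16.3 CPM and 8.43 to 13.3 CPM (0.13 ± 0.20, adjusted p = 0.706 by edgeR). CLCN6 of late endosomes had 0.973 to 1.91 CPM and 1.13 to 2.45 CPM (-0.22 ± 0.26, edgeR adjusted p = 0.604). CLCN2, a chloride channel of the surface membrane, had 0.977 to 1.78 CPM in fibre1 and 1.05, 2.51, 2.61 and 1.25 CPM in fibre2B. There fibre2B pigs 11 and 14 lay above all fibre1 pigs and pigs 10 and 16 among them (-0.37 ± 0.30, edgeR adjusted p = 0.423). The difference between CLCN4 and these genes was not tested.

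Potassium channel genes were the most numerous, and 0 of 14 passed, with 9 positive and 5 negative log2 fold changes and a median of 0.28. An unadjusted p under 0.05 was reached by 2 of them, where 28.9% of all genes tested reached it. KCNN1 encodes a small-conductance channel opened by calcium through bound calmodulin. It had 3.86, 3.05, 7.03, 8.84, 2.48, 7.92 and 2.97 CPM in fibre1 pigs 1, 2, 5, 6, 7, 12 and 17 and 3.12, 1.77, 2.15 and 2.24 CPM in fibre2B pigs 10, 11, 14 and 16. Pigs 5, 6 and 12 formed a group of their own at 7.03 to 8.84 CPM, and the other 4 fibre1 pigs lay close to the fibre2B values. The log2 fold change was 1.15 ± 0.37 (edgeR adjusted p = 0.067). KCNN1 passed in DESeq2 (0.020) and, in edgeR, when fibre1 pig 7 was dropped (0.041), and its log2 fold change was 0.82 without pigs 5 and 6 (adjusted p = 0.196).

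KCNK13, a channel with a pair of pore domains in each subunit, had 0.693 to 1.64 CPM in fibre1 (median 0.874) and 1.15, 1.47, 3.29 and 1.35 CPM in fibre2B. All fibre2B pigs lay above 6 of the 7 fibre1 pigs, and fibre1 pig 2 (1.64) exceeded all but fibre2B pig 14. Its log2 fold change was -0.92 ± 0.34 (edgeR adjusted p = 0.097), and -0.46 without fibre2B pig 14 (adjusted p = 0.418). That pig alone had 3.29 CPM. Only 3 fibre1 pigs reached 1 CPM, so KCNK13 met the filter through its 4 fibre2B pigs.

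The voltage-gated potassium channels and their partners spread widely between pigs. KCNA7, a channel known from skeletal muscle and heart, had 1.89 to 7.91 CPM in fibre1 and 1.36 to 4.22 CPM in fibre2B (0.62 ± 0.39, edgeR adjusted p = 0.309), and the log2 fold change went to 0.38 without fibre1 pig 1 and 0.93 without fibre2B pig 10. KCNC4, a fast delayed rectifier, had 0.190 to 1.7998 CPM in fibre1 and 0.367, 1.17, 0 and 0.260 CPM in fibre2B (1.07 ± 0.68, edgeR adjusted p = 0.314), where the count of 0 in pig 14 allows up to 0.170 CPM. Without fibre2B pig 11 its log2 fold change was 2.16 (adjusted p = 0.088). KCNE3, a single-span subunit known to assemble with KCNC4 in muscle, was on the other side, with 0.635 to 1.74 CPM in fibre1 and 2.34, 2.08, 0.737 and 1.82 CPM in fibre2B (-0.71 ± 0.34, edgeR adjusted p = 0.188). Fibre2B pigs 10, 11 and 16 lay above every fibre1 pig and pig 14 near the bottom, and limma-voom with quality weights called KCNE3 with pig 14 left out.

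KCNQ5, a slow voltage-gated channel found in skeletal muscle, had 14.1 to 23.4 CPM in fibre1 and 18.56, 21.04, 8.56 and 15.98 CPM in fibre2B (0.22 ± 0.22, edgeR adjusted p = 0.538). Its only low pig was fibre2B pig 14, and without it the log2 fold change was 0.025. KCNT1, a sodium-activated channel, had 3.52 to 12.1 CPM in fibre1 and 3.25 to 6.58 CPM in fibre2B (0.62 ± 0.33, edgeR adjusted p = 0.239). KCNH2, the channel of the rapid repolarising current of the heart, varied most in proportion among the genes with counts in all pigs, with 0.504 CPM in fibre2B pig 10 against 9.93 CPM in fibre1 pig 6, a 19.7-fold range (0.52 ± 0.63, edgeR adjusted p = 0.613). Without fibre1 pig 6 KCNH2 had a log2 fold change of 0.093.

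The rest of the potassium genes lay near the filter or showed broad overlap. KCNIP2 and KCNIP3, calcium-binding proteins that attach to voltage-gated channels, had 1.85 to 8.66 and 0.824 to 4.11 CPM in fibre1, with pig 12 the highest for each, and 2.60 to 4.95 and 0.937 to 1.87 CPM in fibre2B. Without pig 12 the log2 fold change of KCNIP2 went from 0.20 to -0.067 and that of KCNIP3 from 0.43 to 0.091. KCNAB1, a cytoplasmic beta subunit, had 0.634 to 3.57 and 1.76 to 3.42 CPM (-0.55 ± 0.41). KCNN3, a relative of KCNN1 with the same calcium gating, had 0.586 to 2.61 and 0.779 to 2.90 CPM (-0.20 ± 0.40), and its sign turned without fibre2B pig 11 (0.27). With all pigs the 2 kept small-conductance genes did not have the same sign, and the difference between them was not tested. KCNN2, which was not kept, had a log2 fold change of -0.31 (edgeR adjusted p = 0.726). KCNJ14, an inward rectifier, had 0.514 to 2.66 and 0.733 to 3.80 CPM (-0.42 ± 0.43), and its sign turned without fibre2B pig 14 (0.13). Of the 10 pore-forming potassium genes 7 had positive values, and of the 4 auxiliary ones 2.

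The 3 kept genes of the transient receptor potential families included 2 that passed, TRPM7 and TRPC4AP, where 9.01% of all genes tested were called. A class of 3 genes, of which TRPC4AP is no channel, is too small to set against that share. TRPM7 (ENSSSCG00000004636), a broadly expressed channel for magnesium, calcium and zinc, had 13.8, 11.4, 13.6, 10.9, 18.8, 15.1 and 20.1 CPM in fibre1 pigs 1, 2, 5, 6, 7, 12 and 17. In fibre2B pigs 10, 11, 14 and 16 it had 30.7, 22.5, 21.2 and 30.5 CPM. Every fibre2B pig lay above every fibre1 pig, and the gap was narrow, between fibre1 pig 17 (20.1) and fibre2B pig 14 (21.2). The means were 14.8 ± 3.50 (SD, n = 7) and 26.2 ± 5.10 CPM (n = 4), 1.77-fold higher in fibre2B (log2 fold change -0.82 ± 0.19, edgeR adjusted p = 0.024). Dropping fibre2B pig 10, 14 or 16 ended the call, with adjusted p of 0.063, 0.059 and 0.064, and so did dropping fibre1 pigs 5 and 6 together (0.078). With pig 14 left out TRPM7 was called by DESeq2 (0.0029) and by limma-voom with quality weights (0.015).

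Some markers of connective tissue and blood were also higher in fibre2B, where 4.63% of all genes were called. Of 6 tested fibroblast markers 2 passed (DCN and LUM), 4 did not, and all 6 had negative log2 fold changes, while the 7 with a row summed to 474 to 980 CPM in fibre1 and 747 to 1440 CPM in fibre2B. Of 2 tested blood markers HBB passed and ALAS2 did not, and the 3 with a row summed to 137 to 467 and 422 to 953 CPM. The part of these markers in the value of TRPM7 was not tested. Endothelial (8 tested), smooth muscle and pericyte (8), immune (5) and adipocyte (2) markers had 0 calls.

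TRPC4AP (ENSSSCG00000007289) has no pore: it binds TRPC4 and serves as an adaptor of a ubiquitin ligase, and its symbol brings it into the family. It had 97.3, 102, 100.2, 120, 74.6, 72.1 and 84.9 CPM in fibre1 pigs 1, 2, 5, 6, 7, 12 and 17 and 54.1, 77.3, 54.3 and 61.8 CPM in fibre2B pigs 10, 11, 14 and 16. Only fibre2B pig 11 overlapped, lying above fibre1 pigs 7 and 12. The means were 93.0 ± 16.9 (SD, n = 7) and 61.9 ± 10.9 CPM (n = 4), 1.50-fold higher in fibre1 (log2 fold change 0.59 ± 0.16, edgeR adjusted p = 0.043). The call was lost when any of 7 pigs was dropped (fibre1 1, 2, 5, 6, fibre2B 10, 14, 16), with adjusted p between 0.070 and 0.138, and was also lost without pigs 5 and 6 together (0.117), with no filter (0.060) and with the same covariate (0.075). With pig 14 left out TRPC4AP missed the threshold in DESeq2 (0.068) and passed in limma-voom with quality weights (0.034).

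In the RefSeq gene table of Sscrofa11.1 TRPC4AP overlaps MYH7B, a slow-type myosin heavy chain gene, and counting by strand is not given in the sources used here. MYH7B had 26.9 to 132 CPM in fibre1 and 20.8 to 57.7 CPM in fibre2B (0.83 ± 0.39, edgeR adjusted p = 0.172), and whether its reads add to those of TRPC4AP was not tested. Both genes had positive log2 fold changes (0.83 for MYH7B and 0.59 for TRPC4AP). The highest pig was fibre1 pig 1 for MYH7B (132 CPM) and fibre1 pig 6 for TRPC4AP (120 CPM), and how the genes vary together over the pigs was not tested. Of the 30 kept genes that the table places on a chromosome 10 overlap another gene, and neither TRPM7 nor CLCN4 does.

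TRPV2, the third of these genes, had 3.71 to 7.30 CPM in fibre1 and 3.85, 2.94, 3.91 and 3.85 CPM in fibre2B. Its log2 fold change was 0.48 ± 0.22 (edgeR adjusted p = 0.167). Fibre1 pigs 2 (7.30) and 17 (6.98) were high, fibre1 pig 1 (3.71) lay below 3 of the 4 fibre2B pigs, and the other 4 fibre1 pigs lay between 4.19 and 4.68, above every fibre2B pig. ITPR3, an inositol trisphosphate receptor and the only calcium release gene that was kept, had 0.346 to 1.15 CPM in fibre1 and 0.962, 0.909, 0.964 and 1.30 CPM in fibre2B (-0.32 ± 0.34, edgeR adjusted p = 0.553).

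**Figure D3:**
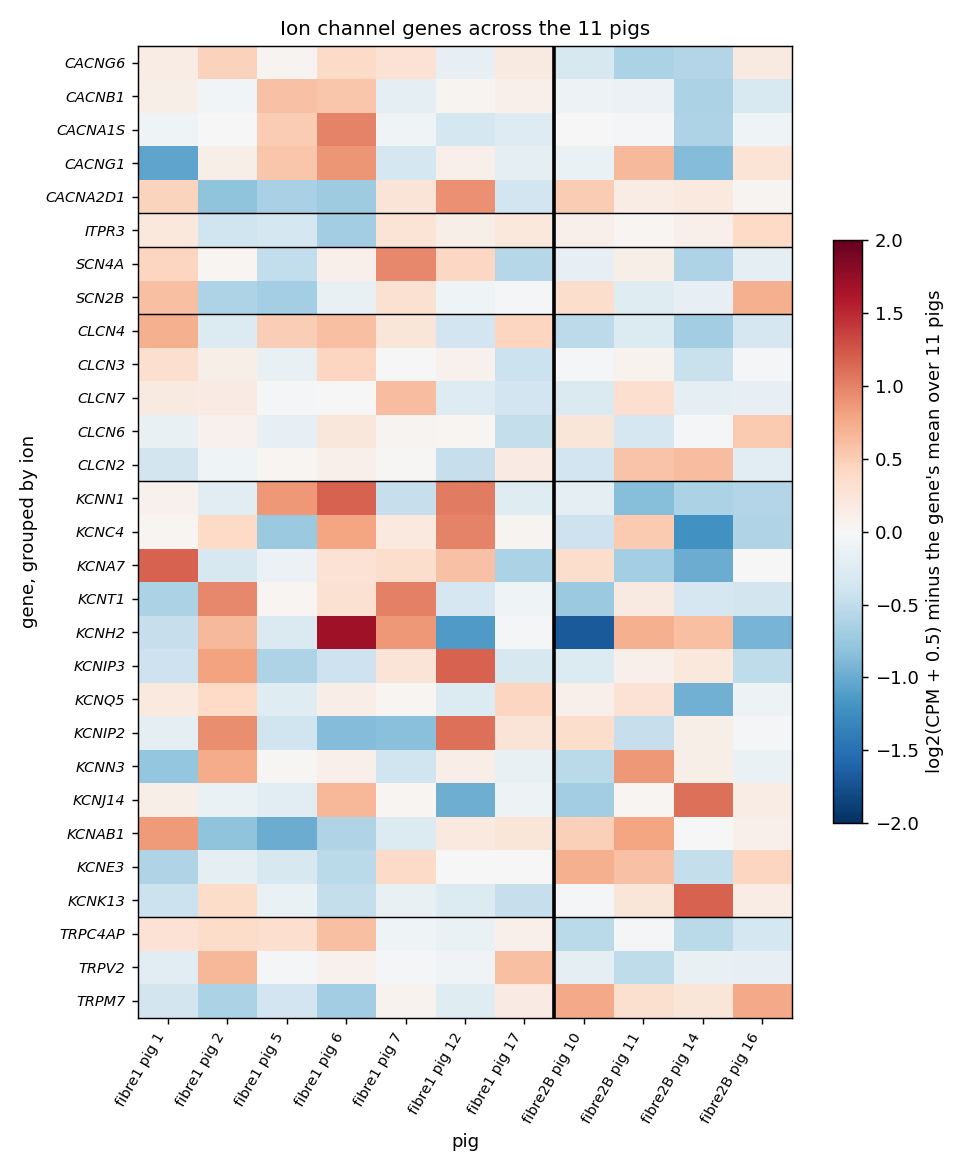
Log2(CPM + 0.5) of 29 of the 31 genes minus each gene's mean over the 11 pigs (colour), with pigs on the x axis and genes grouped by ion on the y axis. The columns differ within a group as well as between groups: fibre2B pig 14 holds the lowest value of 8 genes.

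The channel profile differed between single pigs. Of the 28 channel genes that did not pass, 22 had a log2 fold change that moved by more than 1.5 times when some 1 pig was left out, and of the 3 that passed 0 did. A log2 fold change near 0 moves by this ratio easily, and one large against its SE hardly can. These counts therefore do not compare how steady the genes were. Fibre1 pig 6 had the highest value of 7 genes, among them CACNA1S, CACNG1, KCNN1, KCNH2 and TRPC4AP, and fibre1 pig 12 had the highest of 4. Fibre2B pig 14 had the lowest value of 8 genes, among them CACNA1S, CACNB1, SCN4A, CLCN4 and KCNQ5, and yet the highest of 3, namely CLCN2, KCNK13 and KCNJ14. The summed CPM of the 31 genes was 1148 to 2187 in fibre1 (median 1279) and 846 to 1515 in fibre2B (median 1244). The highest sum was that of fibre1 pig 6, whose low TMM factor raises it. In plain counts that pig had 37872 of 22231909, a slightly smaller share than the 34997 of 20262285 in fibre2B pig 11. On the log2 scale the median deviation of the genes from their own mean was lowest in fibre2B pig 14 (-0.30) and highest in fibre1 pig 6 (0.22).

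Partners of excitation-contraction coupling that are not channels of these families were counted from a list of 32, of which 22 had a row and were tested. Of these 2 passed with higher levels in fibre1 and 2 with higher levels in fibre2B, beside 4.38% and 4.63% of all genes, 18 did not pass, 14 had positive values and the median was 0.22. BIN1, which shapes the transverse tubules, had 1019 to 2121 CPM in fibre1 and 964, 837, 640 and 778 CPM in fibre2B, with no overlap (0.84 ± 0.22, edgeR adjusted p = 0.039). CALM2 and CALM3 encode the same calmodulin protein and went opposite ways. CALM2 had 140 to 240 CPM in fibre1 and 282, 318, 475 and 375 CPM in fibre2B, also with no overlap (-0.78 ± 0.17, edgeR adjusted p = 0.022). BIN1 and CALM2 were the 2 of 22 partners without overlap, where 7.52% of all genes had none.

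CALM3 had 439 to 1103 CPM in fibre1 and 337, 428, 463 and 402 CPM in fibre2B, where only fibre1 pig 12 (439) lay among the fibre2B pigs (0.78 ± 0.22, edgeR adjusted p = 0.042). ATP1B1, the beta subunit of the sodium-potassium pump that restores the gradients used by the channels, had 113 to 194 CPM in fibre1 and 350, 175, 224 and 268 CPM in fibre2B. Only fibre2B pig 11 (175) lay among the fibre1 pigs (-0.71 ± 0.20, edgeR adjusted p = 0.042).

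Of the partners that did not pass, ASPH, whose products include junctin of the release complex, was nearest to passing (-0.76 ± 0.23, edgeR adjusted p = 0.058), with a log2 fold change of -0.50 without fibre2B pig 14. The calcium-binding glycoprotein gene SRL (1.01 ± 0.37, edgeR adjusted p = 0.094), the store sensor STIM1 (0.38 ± 0.15, 0.118) and the junctional protein JPH1 (0.46 ± 0.20, 0.143) followed. In edgeR all 4 partner calls were lost without fibre2B pig 14 (adjusted p from 0.088 to 0.127) or pig 16 and without fibre1 pigs 5 and 6 together (0.072 to 0.115). With pig 14 left out all 4 passed in DESeq2 (adjusted p from 0.016 to 0.037) and in limma-voom with quality weights (0.022 to 0.040). Dropping fibre1 pig 2, 5 or 6 or fibre2B pig 10 also ended the calls of BIN1, CALM3 and ATP1B1, dropping fibre2B pig 11 those of BIN1 and CALM3, and dropping fibre1 pig 1 those of CALM3 and ATP1B1. BIN1 is also known to act in other membranes, and calmodulin binds many targets besides channels.

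**Figure D4:**
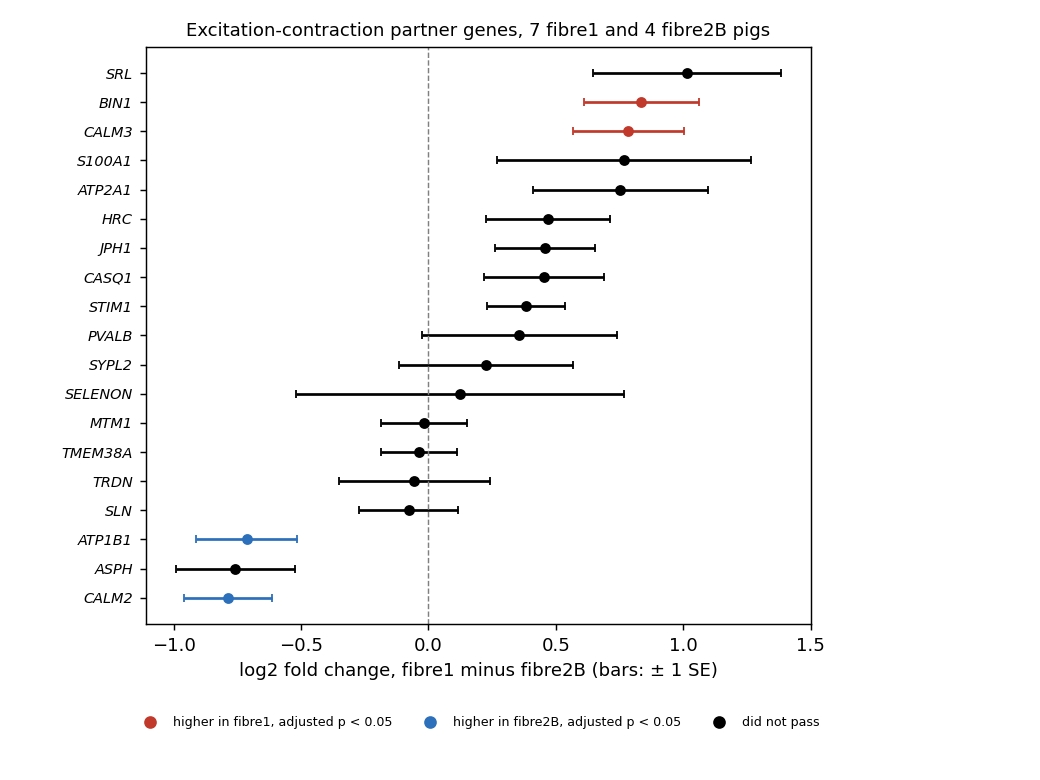
Log2 fold change (x axis, fibre1 minus fibre2B, bars ± 1 SE) of 19 of the 22 excitation-contraction partner genes (y axis). BIN1 (0.84) and CALM3 (0.78) in red and ATP1B1 (-0.71) and CALM2 (-0.78) in blue passed an adjusted p of 0.05.

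Most matching genes were hardly counted in this muscle. Of the 98 genes that were not kept, 23 had 0 counts in every pig, 53 had at most 0.1 CPM in each pig and 91 stayed under 1 CPM in each. A count of 0 in a pig allows up to 0.077 to 0.190 CPM, and this limit covers counting error only. They included channels best known from heart and brain: the heart ryanodine receptor RYR2 had 17 counts over all 11 pigs, and ITPR1 had 16. SCN1A, KCNA4, KCND2, KCND3 and TRPV1 had 0. CACNA1D, a calcium channel of neurons and endocrine cells, had 31 counts. Of the 98, 6 had enough counts to be tested, ITPR2 and TRPM4 among them, with edgeR adjusted p from 0.266 to 0.826. KCNC4, just inside the filter, had 1 CPM in 4 pigs, and TRPM4 and ITPR2, just outside, had it in 3 and 2. With CPM from plain library totals 32 genes would be kept. TRPM4 and ITPR2 would then pass with 4 pigs each, and KCNC4 would fail with 3.

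**Figure D5:**
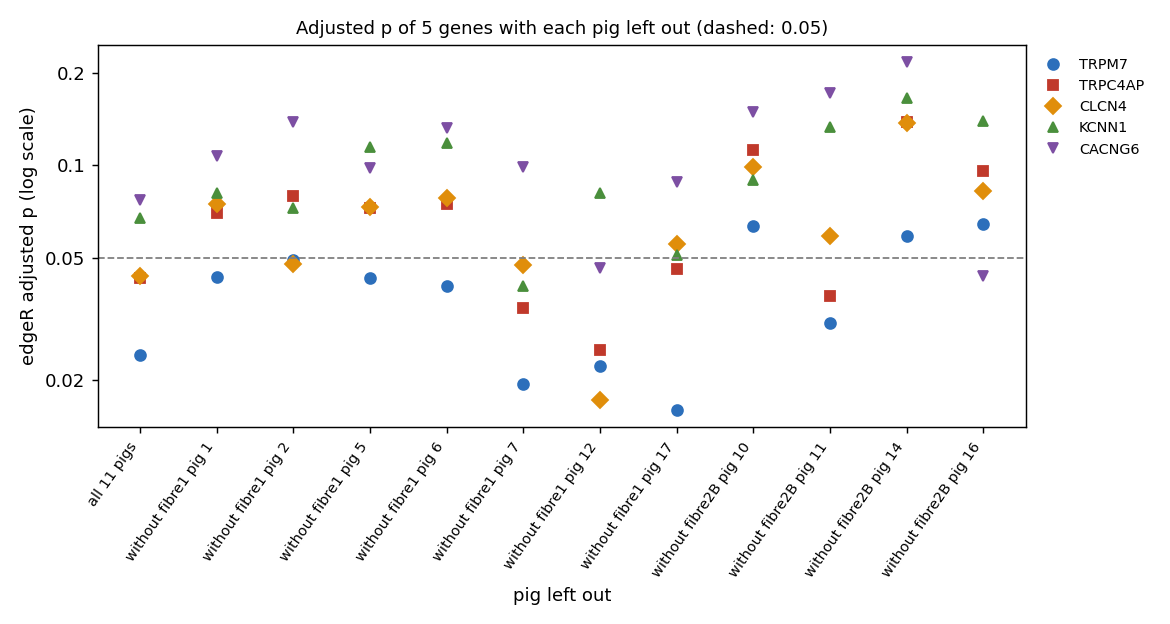
EdgeR adjusted p (y axis, log scale) of TRPM7, TRPC4AP, CLCN4, KCNN1 and CACNG6 with all 11 pigs and with each pig left out (x axis), and the 0.05 threshold as a dashed line. TRPM7 stays below the line except without fibre2B pig 10, 14 or 16, while TRPC4AP crosses it in 7 and CLCN4 in 8 of 11 cases.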

How the data were processed

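Total RNA from the longissimus lumborum of 11 pigs was sequenced from TruSeq libraries (300 ng of RNA, 50 single-end cycles, 5 technical repetitions, 1 column per pig), per the labels' protocols. The deposited gene table holds estimated counts, which were rounded to whole numbers before use. They came to 14832736 to 36374829 per pig, and their number limits the precision of low genes. The submitters' processing notes name CASAVA 1.8.2, FastQC, STAR, RSEM, edgeR, DESeq2 and Sscrofa10.2 without their roles, and the counting strand is not given in the sources used here. Ensembl IDs were paired with symbols by the RefSeq table of Sscrofa11.1, which named 11804 of 25322 rows, whose positions were used only to see which genes overlap each other. The isoform table was not used.

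Counts were scaled by TMM, filtered with filterByExpr (11329 genes) and fitted over all genes with edgeR 4.0.16 (quasi-likelihood F test, fibre1 7 against fibre2B 4, no covariate, R 4.3.3), with Benjamini-Hochberg adjustment and a threshold of 0.05. A positive log2 fold change is higher in fibre1, and its SE is its size divided by the square root of F. The edgeR steps were also run on simulated data, with larger differences than those of the channel genes called here. No result rests on that run. Alternatives used limma 3.58.1, DESeq2 1.42.0 and sva 3.50.0, other scalings and filters, a covariate and pigs left out. Those with DESeq2 and with quality weights without fibre2B pig 14 were chosen after seeing the data.

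The members and lists were chosen with earlier results of these data known. Named were the kept genes that passed, the listed excitation-contraction channels, the 2 genes of smallest p in each ion class and the partners that passed. Some genes are counted in the totals but are not reported here by name. All other genes and the subunit ratios were named after their values were seen. Markers of muscle fibres, nerve, smooth muscle, endothelium, fibroblasts, immune cells, blood and fat were read beside the channels. Of 8 immune and 5 adipocyte markers 5 and 2 had a row, with summed CPM of 4.33 to 13.9 and 1.70 to 6.42 in fibre1 and 9.53 to 20.4 and 1.47 to 5.41 in fibre2B. Endothelial markers summed to 173 to 241 CPM in fibre1 and 146 to 210 in fibre2B, and smooth muscle and pericyte markers to 161 to 245 and 157 to 198.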

Additional observations from a re-analysis of the deposited data

Results flagged for a closer look

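In 4 of the 80 groups of pigs checked (31 channel genes, 8 partners and MYH7B, each in fibre1 and in fibre2B), 1 pig stood far from the rest by Dixon's criterion, which chance meets in about 1 of 20 groups. KCNK13, a potassium channel, had 3.29 CPM in fibre2B pig 14, where the nearest pig had 1.47, and 1.64 CPM in fibre1 pig 2, where the nearest had 1.01. TRPV2, a cation channel, was lowest in fibre2B pig 11 at 2.94 CPM, where the nearest pig had 3.85. ITPR3, a calcium release channel, had 1.30 CPM in fibre2B pig 16, where the nearest had 0.964.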

How the results depend on the processing

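Of the 31 channel genes 26 kept their direction under all 25 alternatives (23 planned, 2 added), and no scaling moved the median of all genes by 0.1. The 2 channel genes called higher in fibre1 became 4 with DESeq2, 1 with limma-voom, 0 with no filter, 0 with the abundance covariate, 0 without fibre1 pigs 5 and 6, and, without fibre2B pig 14, 0 with DESeq2 and 1 with quality weights. The 1 called higher in fibre2B became 0 without pigs 5 and 6 and 2 with quality weights without pig 14. Leaving out 1 pig at a time gave 0 to 3 and 0 to 1. The 1021 calls among all genes became 1706 with DESeq2, 1748 with quality weights, 460 with the covariate, 28 without pigs 5 and 6, and 0 to 1548 without 1 pig, with 771 by DESeq2 and 1095 by quality weights without pig 14. The 4 partner calls became 2 with no filter, 2 with the covariate, 0 without pigs 5 and 6, and 0 to 5 without 1 pig. The cause of these shifts was not tested.

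Signs turned only for genes that did not pass. CACNG1 had log2 fold changes of -0.071 with quality weights, -0.13 with 1 surrogate variable, -0.36 with the covariate, -0.30 without pigs 5 and 6, -0.16 to 0.29 without 1 pig and, without pig 14, -0.15 with DESeq2 and -0.22 with quality weights. With quality weights KCNN3 was 0.069. Without pig 14, DESeq2 gave 0.14 for KCNJ14, and quality weights gave 0.028 for CLCN2, 0.084 for KCNJ14 and 0.14 for KCNN3. Without 1 pig KCNJ14 ran from -0.69 to 0.13, KCNN3 from -0.43 to 0.27 and KCNIP2 from -0.067 to 0.35.

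No paired analysis was possible because no replicate number occurs in both groups. Depth limits the genes near 1 CPM, where 10 counts or fewer in a pig carry large counting error, and the sources used here do not say whether pigs of a group share a litter or a preparation day.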
